A study of Mus musculus with 10 samples.

Results

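Chemokines are small secreted proteins that attract leukocytes, and they act through receptors on the cells they attract. The genes described here are 41 chemokine and chemokine receptor genes of the mouse, chosen by symbol: 27 ligands, 11 signalling receptors and 3 atypical receptors, which bind chemokines without the usual signal and so remove or redistribute them. All 41 symbols were among the 32132 genes that had a read count in at least 1 library, and all 41 passed the filter on low counts that left 19615 genes for testing. They were measured by RNA sequencing in whole colon of adult wild-type C57BL/6 mice with chemically induced colitis.

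Every mouse drank 3% dextran sulfate sodium (DSS), a sulfated polysaccharide that damages the colonic epithelium, for 7 days. Over the same days 1 group of 5 libraries came from mice injected daily into a vein with phosphate-buffered saline (PBS), at 200 ul per 20 g of body weight. The other 5 libraries came from mice injected by the same route and volume with 4-HDHA, a hydroxylated derivative of the omega-3 fatty acid docosahexaenoic acid, dissolved in PBS, with its strength written as 5 um in the labels. The comparison therefore asks what 4-HDHA does on top of DSS colitis. No untreated mice were analysed here, so nothing below says how DSS itself moved a chemokine. The labels number the libraries within each group but do not say separately that each is a different animal, so the p-values measure the spread between these libraries.

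In colitis, epithelial cells, macrophages and stromal cells release CXC chemokines with an ELR motif, which draw neutrophils through CXCR2, and CC chemokines such as CCL2, which draw monocytes through CCR2. Interferon-gamma induces a further set, CXCL9, CXCL10 and CXCL11, which draw activated T cells through CXCR3. Other ligands are made in the healthy gut, where CCL20, CCL25 and CCL28 guide lymphocytes to the mucosa, CCL19 guides cells carrying CCR7 within lymphoid tissue, and CX3CL1 holds macrophages that carry CX3CR1. In whole tissue, fewer cells of a type and less RNA per cell cannot be told apart.

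The library totals lay between 50915365 and 66470519 counts. Among the cell type lists, summed levels in CPM (counts scaled to a common library size with the TMM factors of edgeR) were highest for the epithelial list, 9221 to 16853 CPM with PBS and 9336 to 15547 CPM with 4-HDHA, and the defining genes of intestinal epithelium, among them Epcam, Krt8 and Muc2, were present in every library. Some libraries stood apart in their makeup. The summed smooth muscle list was lowest in PBS replicate 3 (922 CPM) and next lowest in 4-HDHA replicate 5 (1209 CPM). The sum was 1823 to 4226 CPM in the other PBS libraries and 4573 to 6785 CPM in the other 4-HDHA libraries. All 8 smooth muscle genes had a positive log2 fold change of 4-HDHA over PBS, with a median of 0.85. The summed list of B cell and follicle genes was 493 CPM in 4-HDHA replicate 5 and 5.87 to 35.1 CPM in the other 9 libraries. With PBS and 4-HDHA in that order, the summed ranges were 19.4 to 25.7 and 38.2 to 202 CPM for adipocyte genes, 6.48 to 51.7 and 34.0 to 106 CPM for squamous epithelial genes, 3.22 to 53.1 and 31.1 to 78.9 CPM for skeletal muscle genes and 1.98 to 18.3 and 2.83 to 7.02 CPM for mast cell genes. PBS replicate 3 and 4-HDHA replicate 5 recur below as libraries with high chemokine levels.

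No chemokine or receptor gene passed the test between the groups after adjustment over all genes. The smallest adjusted p of the 41 was 0.311, for Ccl17 (edgeR quasi-likelihood test with Benjamini-Hochberg adjustment). The same test called 0 of all 19615 genes (0.0%) at an adjusted p under 0.05, with a smallest adjusted p of 0.283. At an unadjusted p under 0.05, 4 of the 41 genes (9.76%) had a higher level with 4-HDHA, beside 7.39% of all genes tested, and 0 of the 41 had a lower level, beside 7.45% of all genes (14.8% in either direction). Those 4 were the ligands Ccl17, Ccl19, Ccl20 and Ccl24. By DESeq2, 38 of the 41 genes had an adjusted p and 0 of them passed 0.05, beside 2.51% of all genes with an adjusted p (1.43% higher with 4-HDHA); the smallest was 0.138, for Ccl24, and 2 of the 41 had an unadjusted p under 0.05, both higher with 4-HDHA, Ccl17 and Ccl24, beside 9.67% of all genes with a p. Ccl19, Ccl20 and Ccr6 were given no p by DESeq2, which sets a gene with an extreme library aside.

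Of the 41 log2 fold changes of 4-HDHA over PBS, 24 were positive and 17 negative, a share of 58.5% positive beside 51.0% over all genes tested, with a median of 0.13 beside 0.0081 over all genes. By role, all 4 ELR ligands and all 3 interferon-induced ligands had a negative value, with medians of -0.42 and -0.32, except that Cxcl3 was at 0.021 under the size factors of DESeq2. The 8 monocyte and inflammatory CC ligands were 3 positive and 5 negative, with a median of -0.37. The 4 eosinophil and type 2 ligands were 3 positive and 1 negative, with a median of 0.86, and all 8 mucosal and homeostatic ligands were positive, with a median of 0.32. These counts moved with single libraries and with a smooth muscle covariate. Without PBS replicate 3, 36 of the 41 values were positive, and 18 of the 41 were positive without 4-HDHA replicate 5. With the smooth muscle genes as a covariate 38 of the 41 were positive, all 7 ELR and interferon-induced ligands among them. The smooth muscle genes themselves leaned higher with 4-HDHA, as given above. In any fit with this covariate, tissue makeup and treatment therefore cannot be told apart.

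**Figure D1:**
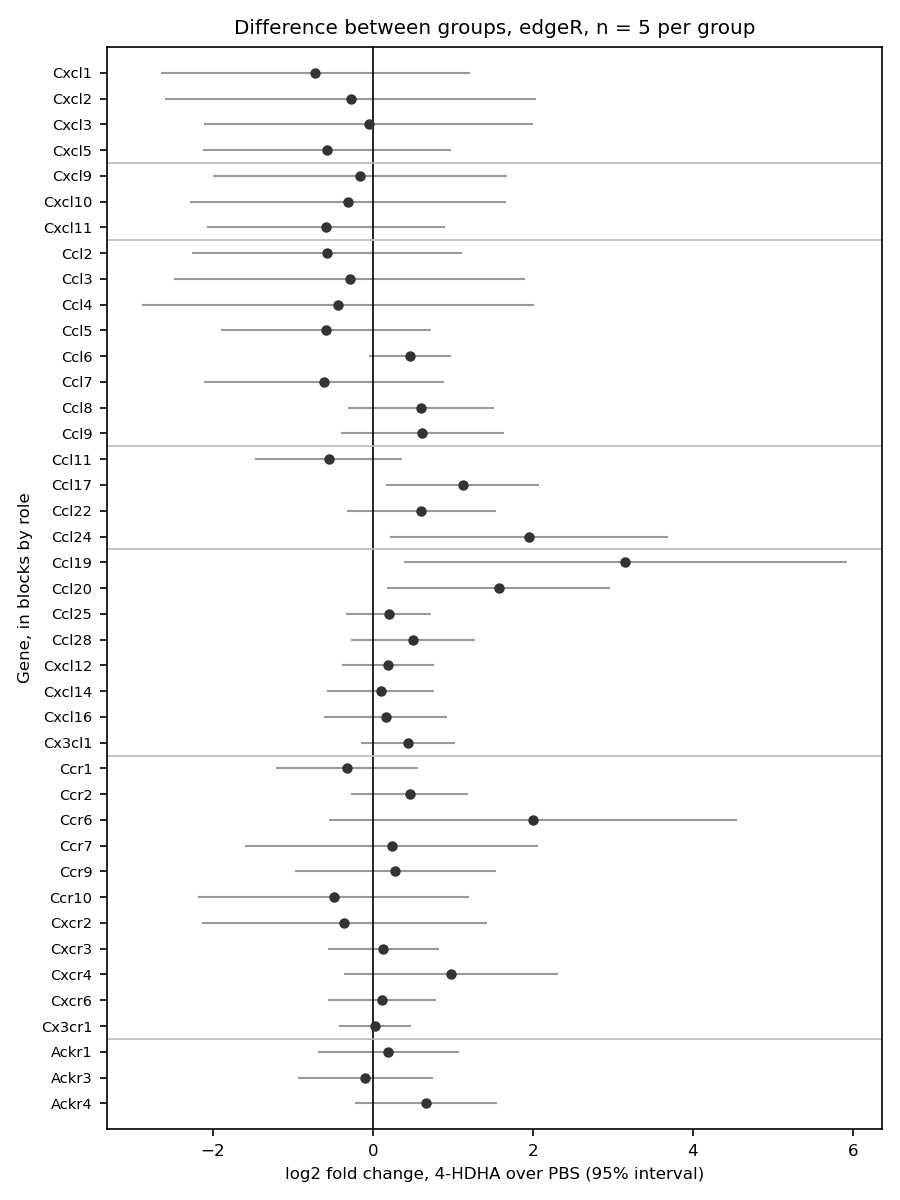
Log2 fold change of 4-HDHA over PBS (horizontal axis) of each of the 41 genes, ordered by role, with points for the edgeR estimate and bars for its 95% interval; 5 libraries in each group. The intervals of Ccl17, Ccl19, Ccl20 and Ccl24 lie above 0, and those of the other 37 genes include 0.

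Levels differed widely between genes. Per length, in the deposited FPKM (fragments per kilobase of transcript, scaled to library size), the highest means over the 10 libraries were those of Ccl8, which draws monocytes, at 109 FPKM, and Ccl6, a rodent ligand that draws myeloid cells, at 96.4 FPKM. Ccl28, Cxcl5 and Cx3cl1 followed at 35.5, 32.4 and 32.2 FPKM. Ccl11, Cxcl9, Cxcl2, Cxcl10 and Ccl7 lay between 10.9 and 17.1 FPKM. The receptor highest in FPKM was Ccr1 at 6.15 FPKM, followed by the atypical receptor Ackr3 at 5.21 FPKM and by Cxcr4 at 4.81 FPKM. Ccr9, the receptor of Ccl25, was lowest of the 41 at 0.0701 FPKM.

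Replicates of 1 group also differed widely. The ratio of the highest to the lowest library within a group had a median of 3.60 with PBS, over 40 genes, and of 4.08 with 4-HDHA, over 39 genes, leaving out genes with a library at 0. That ratio was over 10 for 11 genes in each group. PBS replicate 3 held the highest CPM of all 10 libraries for 10 of the 41 genes, 9 of them ligands. 4-HDHA replicate 4 held it for 10 genes and 4-HDHA replicate 5 for 14, 7 ligands and 7 receptors. PBS replicate 4 held the lowest value for 14 genes and PBS replicate 2 for 9.

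**Figure D2:**
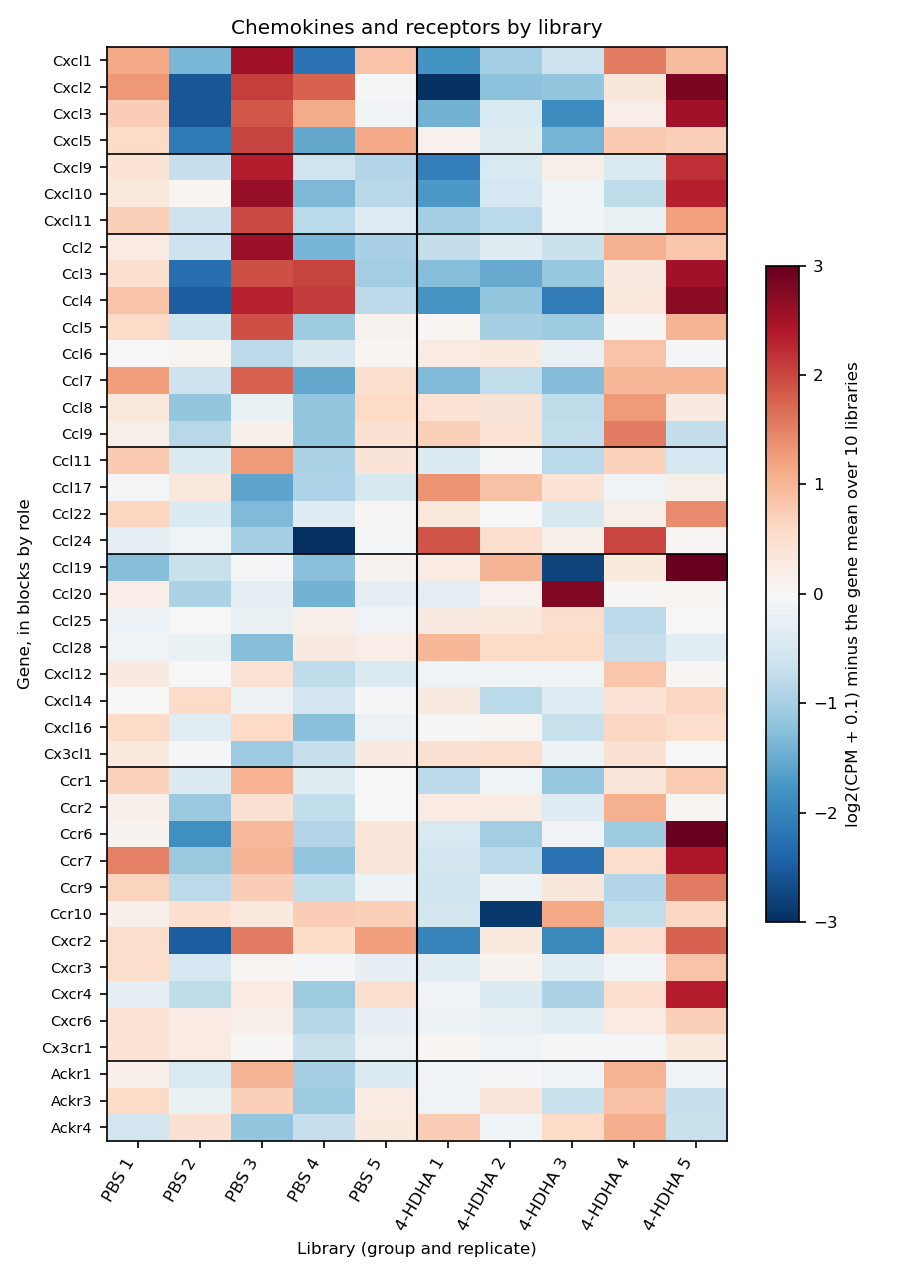
Level of each of the 41 genes (rows, by role) in each of the 10 libraries (columns, PBS replicates 1 to 5 and 4-HDHA replicates 1 to 5), as log2(CPM + 0.1) minus the mean of that gene over the libraries, with colours ending at 3 in either direction. PBS replicate 3 is the highest library for 10 genes, 9 of them ligands, and 4-HDHA replicate 5 for 14 genes, 7 of them receptors.

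The 4 ELR ligands, Cxcl5, Cxcl3, Cxcl1 and Cxcl2, lie in a cluster on chromosome 5, from chr5:90759360-90761624 (Cxcl5) to chr5:90903871-90905938 (Cxcl2), in the mm10 build. Their expression is known to be induced through NF-kB, the transcription factor activated by bacterial products and by interleukin 1. In windows from 250 bases before to 50 bases after the RefSeq start (GRCm38.p6, the assembly called mm10), available for 30 of the 41 genes, the letters GGANTTTCC, the core of an NF-kB site, were searched on both strands. They occurred in 412 of 32851 windows of all genes (1.25%) and in 4 of the 30 genes: Cxcl1, Cxcl2, Cxcl3 and the interferon-induced Cxcl10. Cxcl5 was not among them. The letters were chosen with matches in these windows already seen, and Cxcl1, Cxcl2 and Cxcl3 are related genes of the same cluster. The 2 shares are therefore a description and not a test. Below are the bases from 180 to 31 before the start of these 4 genes, 5′ to 3′ on the strand of the gene, shown because they hold the motif and differed over 10-fold between replicates of a group; capitals mark the 9 bases of the motif, which in Cxcl10 was matched on the other strand. The stretches are chr5:90891065-90891214 (plus strand) for Cxcl1, chr5:90903719-90903868 (plus) for Cxcl2, chr5:90785921-90786070 (plus) for Cxcl3 and chr5:92348920-92349069 (minus) for Cxcl10.
Cxcl1: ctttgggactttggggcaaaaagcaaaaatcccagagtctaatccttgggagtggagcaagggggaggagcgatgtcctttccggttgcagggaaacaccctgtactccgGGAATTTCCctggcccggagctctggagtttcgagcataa
Cxcl2: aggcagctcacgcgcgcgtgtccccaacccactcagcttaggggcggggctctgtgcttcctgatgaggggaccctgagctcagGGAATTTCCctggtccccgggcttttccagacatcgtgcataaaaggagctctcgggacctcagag
Cxcl3: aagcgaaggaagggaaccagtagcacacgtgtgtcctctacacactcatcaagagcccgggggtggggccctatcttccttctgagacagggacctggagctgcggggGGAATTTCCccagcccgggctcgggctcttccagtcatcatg
Cxcl10: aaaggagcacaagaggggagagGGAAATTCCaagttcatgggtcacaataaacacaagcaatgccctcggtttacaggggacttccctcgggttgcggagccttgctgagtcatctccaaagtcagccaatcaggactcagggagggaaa
The motif begins 70, 96 and 72 bases before the start in Cxcl1, Cxcl2 and Cxcl3 and 158 bases before it in Cxcl10. A match of letters is not a measured binding site. Of the other motifs searched on both strands, the core of an interferon response element (TTTCNNTTT) was found in Ccl19, Ccl28, Ccr1, Cxcl10 and Cxcl14 (10.6% of all windows), the palindromic GAS element (TTCNNNGAA) in Ccl17, Ccr6 and Cxcl14 (8.3%) and a C/EBP core (TTGCNNAA) in Ackr3 (10.8%). Searched letters can overlap one another in a window.

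Cxcl1, the mouse KC protein, is a major neutrophil attractant of inflamed mouse tissue. It measured 19.4, 3.30, 50.9, 1.80 and 15.9 CPM in PBS replicates 1 to 5 and 2.47, 4.18, 5.67, 26.1 and 17.0 CPM in 4-HDHA replicates 1 to 5. The highest value was in PBS replicate 3 and the lowest in PBS replicate 4, so the whole range of the 10 libraries lay within the PBS group. Cxcl1 averaged 18.3 ± 19.8 CPM under PBS (SD, n = 5) and 11.1 ± 10.1 CPM under 4-HDHA (SD, n = 5). Cxcl1 had a log2 fold change of -0.72 (SE 0.88, 95% interval -2.65 to 1.21; edgeR, Benjamini-Hochberg adjusted p = 0.694), and it was 0.14 without PBS replicate 3.

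Cxcl2, the macrophage inflammatory protein 2 that macrophages and neutrophils release, measured 34.3, 2.24, 58.2, 47.5 and 13.2 CPM with PBS and 1.31, 5.85, 6.07, 17.4 and 97.7 CPM with 4-HDHA. 4-HDHA replicate 5 was above every PBS library, while the other 4-HDHA libraries lay within or below the PBS range. Cxcl2 had a log2 fold change of -0.28 (SE 1.05); it was 0.079 without PBS replicate 3 and -2.02 without 4-HDHA replicate 5. Cxcl3, a close relative of Cxcl2, measured 4.17, 0.332, 9.26, 5.42 and 2.33 CPM with PBS and 0.858, 1.78, 0.599, 2.86 and 14.6 CPM with 4-HDHA, and the 4 highest libraries were those of Cxcl2, 4-HDHA replicate 5 followed by PBS replicates 3, 4 and 1. Its log2 fold change was -0.055 (SE 0.93), with the opposite sign, 0.021, under the size factors of DESeq2; it was 0.44 without PBS replicate 3 and -1.50 without 4-HDHA replicate 5. Cxcl5, which epithelial cells make, measured 71.8, 10.9, 196, 16.4 and 106 CPM with PBS and 52.5, 37.2, 18.3, 82.9 and 79.0 CPM with 4-HDHA. PBS replicate 3 was the highest and PBS replicate 2 the lowest library, and all 5 libraries of 4-HDHA lay between them. Cxcl5 had a log2 fold change of -0.57 (SE 0.70), and 0.077 without PBS replicate 3.

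Cxcr2, the receptor of these ligands on neutrophils, measured 5.41, 0.592, 11.0, 5.49 and 9.12 CPM with PBS and 0.858, 4.62, 0.907, 5.33 and 12.9 CPM with 4-HDHA. Low values occurred in both groups, in PBS replicate 2 and in 4-HDHA replicates 1 and 3, and the highest library was 4-HDHA replicate 5. Cxcr2 had a log2 fold change of -0.36 (SE 0.81; edgeR, Benjamini-Hochberg adjusted p = 0.847), which was -0.062 without PBS replicate 3 and -1.11 without 4-HDHA replicate 5. The neutrophil list, of which S100a8, Mmp8 and Ly6g are members, summed to 391 to 1166 CPM with PBS and 264 to 730 CPM with 4-HDHA, with 5 of its 7 genes at a negative and 2 at a positive log2 fold change. Most of that sum was Ly6g, with means of 553 CPM under PBS and 483 CPM under 4-HDHA. The other 6 genes summed to 113, 16.3, 469, 161 and 167 CPM in PBS replicates 1 to 5 and to 21.5, 63.7, 22.0, 97.2 and 335 CPM in 4-HDHA replicates 1 to 5. The 3 lowest of these sums were in the 3 libraries lowest for Cxcr2, and the 2 highest were in PBS replicate 3 and 4-HDHA replicate 5. The part of neutrophil number in the values of Cxcr2 and its ligands was not tested.

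**Figure D3:**
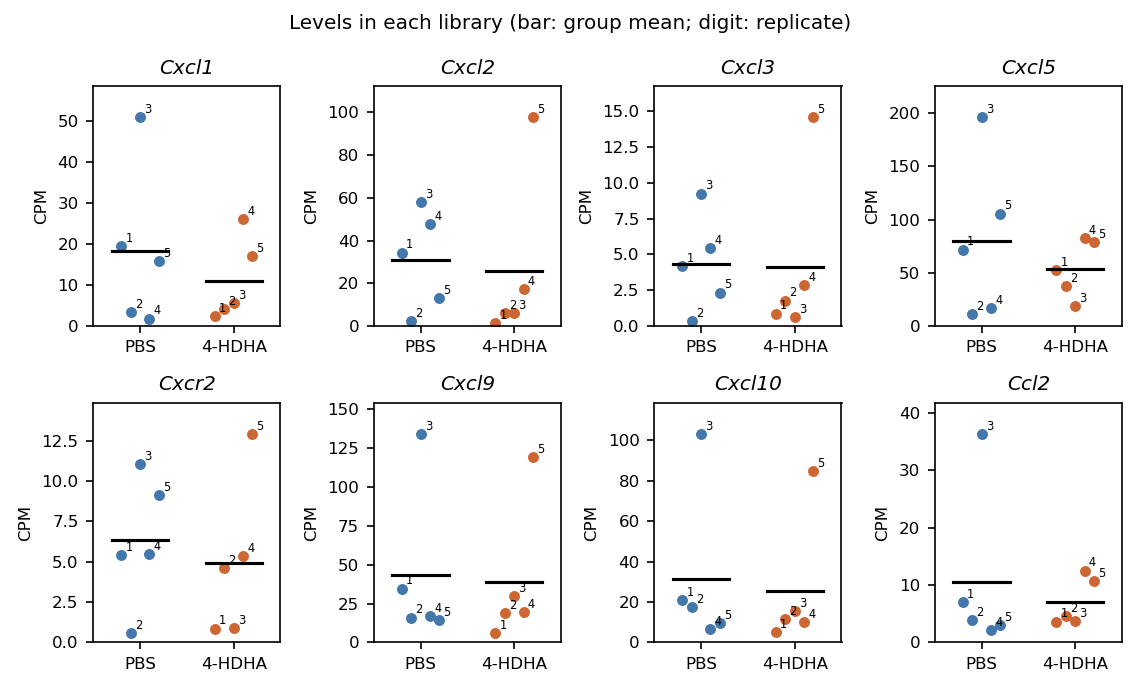
CPM (vertical axes, linear from 0) of Cxcl1, Cxcl2, Cxcl3, Cxcl5, Cxcr2, Cxcl9, Cxcl10 and Ccl2 in PBS and 4-HDHA; each point is a library marked with its replicate number and each bar a group mean of 5. The groups overlap for every gene drawn, and the highest point is PBS replicate 3 or 4-HDHA replicate 5 in each panel.

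Cxcl9, Cxcl10 and Cxcl11, which interferon-gamma induces, lie together at chr5:92321347-92365485 in mm10, apart from the ELR cluster. Cxcl9 measured 34.6, 16.0, 134, 17.1 and 14.2 CPM with PBS and 6.17, 18.9, 29.6, 19.3 and 119 CPM with 4-HDHA. In each group a single library was far above the rest, PBS replicate 3 and 4-HDHA replicate 5. Cxcl9 had a log2 fold change of -0.16 (SE 0.83), 0.91 without PBS replicate 3, -1.23 without 4-HDHA replicate 5 and -0.15 without both. Cxcl10 measured 21.0, 17.5, 103, 6.57 and 9.46 CPM with PBS and 5.02, 11.7, 15.3, 9.92 and 84.7 CPM with 4-HDHA, with the same libraries highest. Its log2 fold change was -0.32 (SE 0.90), 0.89 without PBS replicate 3, -1.59 without 4-HDHA replicate 5 and -0.38 without both of them. Cxcl11, the least abundant of the 3, ranged from 0.433 to 3.61 CPM with PBS and from 0.368 to 2.08 CPM with 4-HDHA, with a log2 fold change of -0.59 (SE 0.68), 0.24 without PBS replicate 3 and -1.20 without 4-HDHA replicate 5. Cxcl11 and Cxcl10 overlap Art3 on the opposite strand, which had a mean of 825 counts beside 66.2 for Cxcl11, and whether the counting used the strand is not given in the sources used here, so the Cxcl11 values are uncertain.

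Cxcr3, the receptor of these 3 ligands on activated T cells, measured 2.12, 0.967, 1.55, 1.40 and 1.19 CPM with PBS and 1.12, 1.56, 1.14, 1.36 and 2.72 CPM with 4-HDHA. The values of 9 libraries lay between 0.967 and 2.12 CPM and the highest was again 4-HDHA replicate 5. Cxcr3 had a log2 fold change of 0.13 (SE 0.32, 95% interval -0.57 to 0.82), and -0.16 without that library. The T cell list, with Cd3e, Cd4 and Cd8a among its genes, summed to 18.9 to 36.4 CPM with PBS and 16.2 to 70.3 CPM with 4-HDHA, its highest value also in 4-HDHA replicate 5. The part of T cell number in the Cxcr3 level was not tested.

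The monocyte and inflammatory CC ligands form 2 neighbouring clusters on chromosome 11. In the first, Ccl2, the main ligand of CCR2, measured 7.09, 3.82, 36.3, 2.18 and 2.97 CPM with PBS and 3.61, 4.62, 3.73, 12.5 and 10.6 CPM with 4-HDHA. PBS replicate 3 was the highest library, and the other 4 PBS libraries overlapped the 4-HDHA range. Ccl2 had a log2 fold change of -0.58 (SE 0.76; edgeR, Benjamini-Hochberg adjusted p = 0.721) and 0.81 without PBS replicate 3. Ccl7, which shares CCR2 with Ccl2, measured 17.2, 4.63, 24.6, 2.41 and 10.002 CPM with PBS and 2.80, 4.22, 2.81, 14.4 and 14.3 CPM with 4-HDHA. Here the 4-HDHA libraries split, with replicates 1 to 3 at 2.80 to 4.22 CPM and replicates 4 and 5 at 14.4 and 14.3 CPM, and both ranges lay inside that of PBS. Ccl7 had a log2 fold change of -0.61 (SE 0.68), and it stayed negative when any 1 library was left out, from -0.96 to -0.15, but was 0.14 with the smooth muscle genes as a covariate.

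Ccl8, the most abundant gene of the 41 per length, measured 69.9, 24.8, 48.2, 25.1 and 84.8 CPM with PBS and 75.4, 73.4, 33.0, 134 and 66.8 CPM with 4-HDHA. The groups overlapped, with PBS replicates 2 and 4 lowest and 4-HDHA replicate 4 highest, and Ccl8 averaged 50.6 ± 26.8 CPM under PBS (SD, n = 5) and 76.6 ± 36.6 CPM under 4-HDHA (SD, n = 5). Ccl8 had a log2 fold change of 0.60 (SE 0.42). Ccl6, from the second cluster at chr11:83525778-83664683, measured 187, 196, 108, 133 and 195 CPM with PBS and 222, 227, 159, 339 and 181 CPM with 4-HDHA. Its values were the steadiest of the inflammatory CC ligands, with at most 2.13 fold between replicates of a group. Ccl6 had a log2 fold change of 0.46 (SE 0.23, 95% interval -0.048 to 0.97; edgeR, Benjamini-Hochberg adjusted p = 0.360). Ccl9, another myeloid attractant of rodents, ranged from 11.5 to 35.6 CPM with PBS and from 15.4 to 74.7 CPM with 4-HDHA, with a log2 fold change of 0.62 (SE 0.46). The macrophage and monocyte list, with Cd68, Adgre1 and Mrc1, summed to 476 to 1028 CPM with PBS and 658 to 1751 CPM with 4-HDHA, with all 8 of its genes at a positive log2 fold change and its highest value in 4-HDHA replicate 4. That library was also the highest for Ccl6, Ccl8 and Ccl9, and the part of macrophage number in these values was not tested.

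Ccl3, Ccl4 and Ccl5 are inflammatory ligands made by activated macrophages and T cells. Ccl3 ranged from 0.390 to 9.38 CPM with PBS and from 0.725 to 13.3 CPM with 4-HDHA, and Ccl4 from 0.202 to 8.22 CPM with PBS and from 0.292 to 10.9 CPM with 4-HDHA. For both, 4-HDHA replicate 5 was the highest of all libraries and PBS replicate 2 the lowest. Their log2 fold changes were -0.29 (SE 0.99) and -0.44 (SE 1.11), and without 4-HDHA replicate 5 they were -1.79 and -2.22. Ccl5 ranged from 2.41 to 20.1 CPM with PBS and from 2.40 to 10.6 CPM with 4-HDHA, with PBS replicate 3 highest and a log2 fold change of -0.58 (SE 0.60), which was 0.13 without that library and -1.01 without 4-HDHA replicate 5.

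Ccr2, which marks classical monocytes, measured 23.5, 9.70, 29.0, 12.7 and 21.4 CPM with PBS and 25.1, 24.7, 16.2, 44.2 and 22.5 CPM with 4-HDHA. 4-HDHA replicate 4 was highest and PBS replicate 2 lowest, with the other libraries in a common range. Ccr2 had a log2 fold change of 0.46 (SE 0.33), positive while those of its ligands Ccl2 and Ccl7 were negative, and none of the 3 passed the test. Ccr1, a receptor of Ccl3, Ccl5, Ccl6 and Ccl9 on myeloid cells, ranged from 13.1 to 36.4 CPM with PBS and from 7.85 to 29.9 CPM with 4-HDHA, with a log2 fold change of -0.33 (SE 0.40).

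The ligands of eosinophils and type 2 cells held 2 of the 4 genes at an unadjusted p under 0.05. Ccl24, eotaxin 2, which macrophages make and which draws eosinophils through CCR3, lies at chr5:135569937-135573049 in mm10. It measured 0.653, 0.736, 0.357, 0 and 0.771 CPM in PBS replicates 1 to 5 and 3.27, 1.20, 0.922, 3.54 and 0.823 CPM in 4-HDHA replicates 1 to 5. Every 4-HDHA library was above every PBS library, by a narrow gap between PBS replicate 5 and 4-HDHA replicate 5. It was the 1 gene of the 41 whose groups did not overlap (2.44%), beside 2.79% of all genes tested (1.16% higher and 1.63% lower with 4-HDHA). Ccl24 averaged 0.503 ± 0.325 CPM under PBS (SD, n = 5) and 1.95 ± 1.34 CPM under 4-HDHA (SD, n = 5). PBS replicate 4 had 0 counts, which allows up to 0.0520 CPM (3 counts, counting error only). Ccl24 had a log2 fold change of 1.95 (SE 0.79, 95% interval 0.21 to 3.69), with an unadjusted p of 0.0313 and an adjusted p of 0.315 (edgeR, Benjamini-Hochberg). Leaving out 1 library gave 1.62 to 2.15, and the unadjusted p was then over 0.05 without PBS replicate 3, 4-HDHA replicate 1 or 4-HDHA replicate 4. With the smooth muscle genes as a covariate it was 1.34, with an unadjusted p of 0.135. The 2 libraries highest for Ccl24, 4-HDHA replicates 4 and 1, also held the highest sums of the adipocyte list, 202 and 152 CPM, and of the macrophage and monocyte list, 1751 and 1178 CPM. The adipocyte sums did not overlap between the groups, and the part of either cell type in the Ccl24 level was not tested.

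Ccl17, which dendritic cells make and which draws CCR4-bearing T cells, lies at chr8:94810453-94812036. It measured 1.08, 1.44, 0.310, 0.555 and 0.790 CPM with PBS and 3.06, 2.16, 1.55, 1.05 and 1.305 CPM with 4-HDHA. The 3 highest libraries were 4-HDHA replicates 1, 2 and 3, and the groups overlapped because PBS replicates 1 and 2 lay above 4-HDHA replicate 4. Ccl17 averaged 0.836 ± 0.444 CPM under PBS (SD, n = 5) and 1.82 ± 0.805 CPM under 4-HDHA (SD, n = 5). Ccl17 had a log2 fold change of 1.12 (SE 0.43, 95% interval 0.17 to 2.08), with an unadjusted p of 0.0255 and an adjusted p of 0.311 (edgeR, Benjamini-Hochberg). It was 0.86 to 1.42 when 1 library was left out, with an unadjusted p over 0.05 without PBS replicate 4, 4-HDHA replicate 1 or 4-HDHA replicate 2, and 0.74 with an unadjusted p of 0.0917 with the smooth muscle covariate. Ccl22, the neighbour of Ccl17 and the other ligand of CCR4, ranged from 1.83 to 7.51 CPM with PBS and from 3.41 to 12.9 CPM with 4-HDHA, with 4-HDHA replicate 5 highest and a log2 fold change of 0.60 (SE 0.42). The dendritic cell list, with Flt3, Zbtb46 and Itgax, summed to 19.2 to 37.0 CPM with PBS and 18.3 to 41.5 CPM with 4-HDHA, with 3 of its 5 genes at a positive log2 fold change.

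Ccl11, eotaxin 1, which fibroblasts make and which draws eosinophils through the same receptor as Ccl24, measured 31.2, 13.6, 44.3, 9.39 and 23.8 CPM with PBS and 13.6, 17.4, 10.3, 29.5 and 12.4 CPM with 4-HDHA. PBS replicate 3 was highest and PBS replicate 4 lowest, and the 4-HDHA libraries lay between them. Ccl11 had a log2 fold change of -0.55 (SE 0.42), opposite in sign to that of Ccl24. The eosinophil list rested on few genes: of its 5, Epx and Ear1 were not among the genes with a count, Prg2 was too low to test, and the 2 tested, Siglecf and Ear2, had log2 fold changes of 0.12 and 0.87, neither past the test. Its sum was 1.21 to 5.47 CPM with PBS and 3.24 to 4.96 CPM with 4-HDHA. The fibroblast list summed to 1071 to 2669 CPM with PBS and 1522 to 7184 CPM with 4-HDHA. Their part in the levels of Ccl24, Ccl17 and Ccl11 was not tested.

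**Figure D4:**
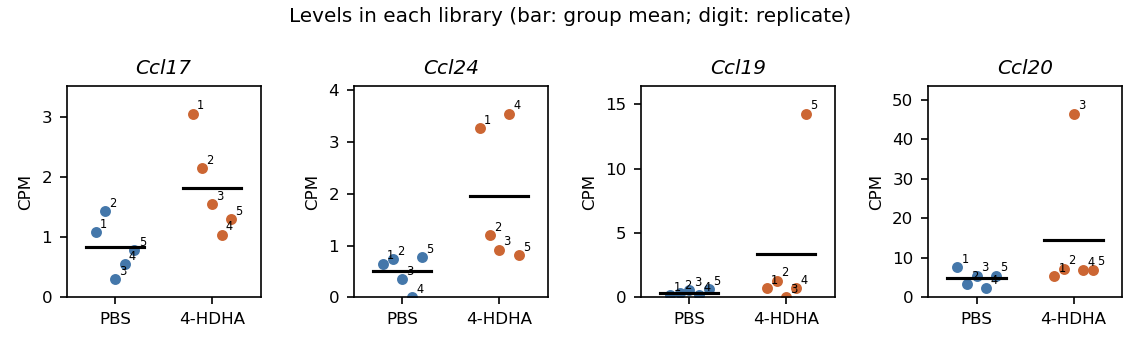
CPM (vertical axes, linear from 0) of Ccl17, Ccl24, Ccl19 and Ccl20 in PBS and 4-HDHA; each point is a library marked with its replicate number and each bar a group mean of 5. All 5 points of Ccl24 with 4-HDHA lie above those with PBS, while the single high point of Ccl19 is 4-HDHA replicate 5 (14.3 CPM) and that of Ccl20 is 4-HDHA replicate 3 (46.6 CPM).

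Ccl20 and its receptor Ccr6 guide dendritic cells and lymphocytes to follicles of the gut wall, and epithelial cells make the ligand when stimulated. Ccl20, at chr1:83116766-83119167, measured 7.74, 3.41, 5.52, 2.43 and 5.55 CPM with PBS and 5.41, 7.30, 46.6, 6.85 and 7.05 CPM with 4-HDHA. Replicate 3 of 4-HDHA was far above every other library, and the remaining 4 lay within the PBS range. Ccl20 averaged 4.93 ± 2.07 CPM under PBS (SD, n = 5) and 14.6 ± 17.9 CPM under 4-HDHA (SD, n = 5). Ccl20 had a log2 fold change of 1.57 (SE 0.63), with an unadjusted p of 0.0310 and an adjusted p of 0.315 (edgeR, Benjamini-Hochberg). Without 4-HDHA replicate 3 it was 0.43, with an unadjusted p of 0.201, and with the smooth muscle covariate it was 1.59, with an unadjusted p of 0.0800. Ccr6, at chr17:8236043-8257141, measured 0.674, 0.101, 1.32, 0.295 and 0.829 CPM with PBS and 0.429, 0.254, 0.569, 0.244 and 11.3 CPM with 4-HDHA. Its high library was 4-HDHA replicate 5 rather than replicate 3, and the rest of both groups lay between 0.101 and 1.32 CPM. Ccr6 had a log2 fold change of 2.00 (SE 1.16) with all libraries and -0.78 without 4-HDHA replicate 5.

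Ccl19 and Ccr7 organise the T cell zones of lymphoid tissue. Ccl19, at chr4:42754525-42756577, measured 0.184, 0.332, 0.558, 0.191 and 0.636 CPM with PBS and 0.715, 1.304, 0, 0.751 and 14.3 CPM with 4-HDHA. Replicate 5 of 4-HDHA was far above all others, and 4-HDHA replicate 3 had 0 counts, which allows up to 0.0461 CPM. Ccl19 averaged 0.380 ± 0.209 CPM under PBS (SD, n = 5) and 3.41 ± 6.09 CPM under 4-HDHA (SD, n = 5). Ccl19 had a log2 fold change of 3.16 (SE 1.26), the largest of the 41, with an unadjusted p of 0.0289 and an adjusted p of 0.314 (edgeR, Benjamini-Hochberg). It was 0.85 with an unadjusted p of 0.355 without 4-HDHA replicate 5. The unadjusted p of Ccl19 was also over 0.05 without PBS replicate 1, 2 or 4 (edgeR, 0.0609, 0.0567 and 0.0606). Ccr7 measured 14.0, 2.18, 9.91, 2.11 and 6.32 CPM with PBS and 3.31, 2.77, 0.968, 7.09 and 26.5 CPM with 4-HDHA. Both groups spanned a wide range, and 4-HDHA held both the lowest and the highest library. Ccr7 had a log2 fold change of 0.24 (SE 0.83), and -0.97 without 4-HDHA replicate 5. As given above, 4-HDHA replicate 5 was also the library in which the list of B cell and follicle genes, with Ms4a1 and Cr2, stood apart from the other 9; the part of lymphoid tissue in the levels of Ccl19, Ccr6 and Ccr7 was not tested.

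Ccl25 draws gut-homing T cells and plasma cells through Ccr9. Ccl25 measured 4.17, 4.72, 3.98, 5.27 and 4.37 CPM with PBS and 5.72, 5.85, 6.82, 2.67 and 4.71 CPM with 4-HDHA. The PBS libraries were close together, and the 4-HDHA libraries lay on both sides of them. Ccl25 had a log2 fold change of 0.19 (SE 0.24). Ccr9 measured 1.16, 0.361, 1.22, 0.381 and 0.617 CPM with PBS and 0.429, 0.616, 0.907, 0.332 and 2.25 CPM with 4-HDHA, all low, with a log2 fold change of 0.28 (SE 0.57), which was -0.39 without 4-HDHA replicate 5. Opposite-strand neighbours overlap both genes: Lztfl1 had a mean of 1087 counts beside 49.3 for Ccr9, and Elavl1 had 2955 beside 282 for Ccl25, so both levels are uncertain if the counting ignored the strand.

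Ccl28, which colonic epithelium makes and which draws IgA plasma cells through Ccr10, lies at chr13:119623819-119654359. It measured 163, 154, 73.0, 212 and 201 CPM with PBS and 355, 263, 268, 109 and 139 CPM with 4-HDHA. Replicates 1, 2 and 3 of 4-HDHA were above every PBS library and replicates 4 and 5 were below most of them. Ccl28 averaged 161 ± 54.7 CPM under PBS (SD, n = 5) and 227 ± 101 CPM under 4-HDHA (SD, n = 5). Ccl28 had a log2 fold change of 0.50 (SE 0.35, 95% interval -0.28 to 1.28). This value remained positive when any 1 library was left out, from 0.28 to 0.67, but was 0.086 with the smooth muscle genes as a covariate. Ccr10 measured 0.735, 0.967, 0.822, 1.14 and 1.12 CPM with PBS and 0.408, 0, 1.57, 0.349 and 1.06 CPM with 4-HDHA. The 5 PBS libraries were within a narrow range while 4-HDHA ran from 0 counts in replicate 2, which allows up to 0.0543 CPM, to the highest library, replicate 3. Ccr10 had a log2 fold change of -0.49 (SE 0.77); Cntnap1, on the opposite strand, overlaps it with a mean of 521 counts beside 49.0. The plasma cell list, with Jchain, Mzb1 and Sdc1, summed to 304 to 525 CPM with PBS and 152 to 502 CPM with 4-HDHA, with 3 of its 5 genes at a negative log2 fold change, and its part in the Ccr10 level was not tested.

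Cxcl12, which stromal and endothelial cells make at a steady level to retain leukocytes, signals through Cxcr4 and is scavenged by Ackr3. Cxcl12 measured 87.0, 72.6, 99.0, 43.2 and 53.4 CPM with PBS and 67.0, 66.2, 66.5, 129 and 75.2 CPM with 4-HDHA. Replicates 1, 2, 3 and 5 of 4-HDHA lay between 66.2 and 75.2 CPM and replicate 4 stood above them and above every PBS library. That library also held the highest sum of the fibroblast list, 7184 CPM, and the part of stromal cells in the Cxcl12 level was not tested. Cxcl12 had a log2 fold change of 0.19 (SE 0.26) and -0.023 without 4-HDHA replicate 4. Cxcr4 measured 6.11, 4.36, 8.98, 3.55 and 10.4 CPM with PBS and 6.96, 5.62, 3.84, 10.6 and 39.0 CPM with 4-HDHA. Its log2 fold change was 0.98 (SE 0.61; edgeR, Benjamini-Hochberg adjusted p = 0.435), which was 0.014 without 4-HDHA replicate 5, the one library above the PBS range by more than 1 CPM. Ackr3 measured 26.5, 15.5, 29.4, 8.32 and 21.0 CPM with PBS and 16.3, 22.9, 11.2, 33.0 and 11.1 CPM with 4-HDHA, with overlapping groups and a log2 fold change of -0.095 (SE 0.38).

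Cx3cl1 and Cxcl16 are the ligands made as membrane-bound proteins and shed by metalloproteinases. Cx3cl1, at chr8:94772009-94782427, measured 168, 130.1, 64.1, 84.2 and 163 CPM with PBS and 188, 194, 122, 186 and 137 CPM with 4-HDHA. Replicates 1, 2 and 4 of 4-HDHA were above every PBS library and PBS replicates 3 and 4 were lowest. Cx3cl1 had a log2 fold change of 0.44 (SE 0.26, 95% interval -0.14 to 1.02; edgeR, Benjamini-Hochberg adjusted p = 0.425). Its receptor Cx3cr1, carried by resident macrophages, measured 13.1, 11.6, 10.1, 6.15 and 8.65 CPM with PBS and 10.2, 8.99, 9.56, 9.53 and 12.1 CPM with 4-HDHA, the narrowest spread of the receptors. Cx3cr1 had a log2 fold change of 0.022 (SE 0.20, 95% interval -0.43 to 0.47). Several genes overlap Cx3cr1, among them Wdr48 on the opposite strand, with a mean of 3565 counts beside 584. Gorasp1 and Csrnp1 overlap it on the same strand, with 1822 and 874. The level of Cx3cr1 and its narrow spread are therefore uncertain, whether or not the counting used the strand.

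Cxcl16 measured 47.7, 25.1, 48.5, 13.2 and 28.0 CPM with PBS and 32.5, 33.5, 20.1, 49.3 and 45.9 CPM with 4-HDHA, with PBS replicate 4 lowest and the groups overlapping. Cxcl16 had a log2 fold change of 0.16 (SE 0.35). Cxcr6, its receptor on resident and innate lymphocytes, measured 2.80, 2.50, 2.33, 1.11 and 1.73 CPM with PBS and 1.88, 1.78, 1.64, 2.50 and 3.50 CPM with 4-HDHA, with a log2 fold change of 0.11 (SE 0.31); Fyco1 overlaps it on the opposite strand with a mean of 2418 counts beside 128. Cxcl14, a ligand of epithelium and stroma, ranged from 4.56 to 10.057 CPM with PBS and from 3.80 to 10.4 CPM with 4-HDHA, with a log2 fold change of 0.099 (SE 0.30).

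The other atypical receptors gave no called difference. Ackr1, carried by venular endothelium, ranged from 2.22 to 9.22 CPM with PBS and from 4.18 to 9.45 CPM with 4-HDHA, with a log2 fold change of 0.19 (SE 0.40), and Cadm3 overlaps it on the same strand. Ackr4, which removes Ccl19 and Ccl25, ranged from 2.17 to 7.01 CPM with PBS and from 3.12 to 10.9 CPM with 4-HDHA, with a log2 fold change of 0.66 (SE 0.40). Acad11, on the opposite strand, overlaps it with a mean of 7892 counts beside 329, so the level of Ackr4 is uncertain. The blood endothelial list summed to 47.6 to 83.8 CPM with PBS and 73.3 to 136 CPM with 4-HDHA, and its part in the Ackr1 level was not tested.

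**Figure D5:**
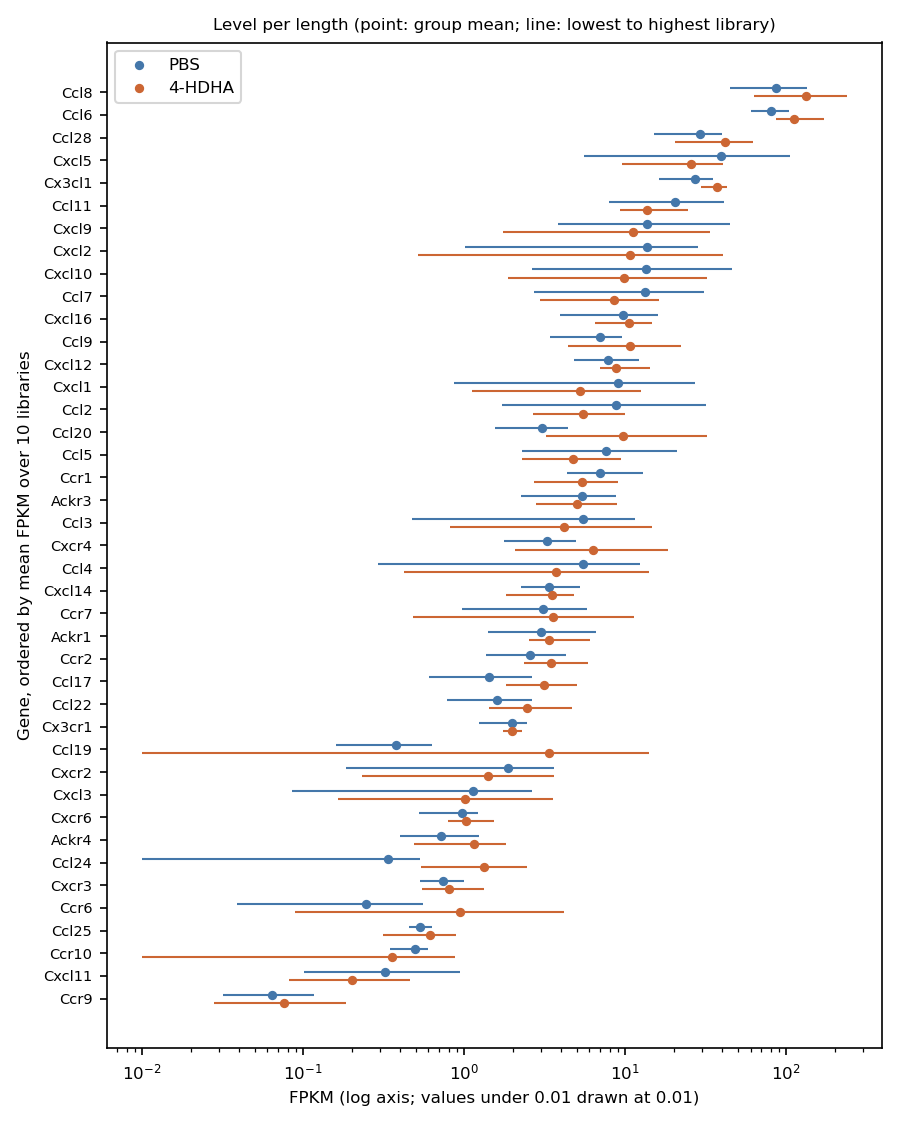
Mean level of each of the 41 genes in the deposited FPKM (log axis), ordered from the highest to the lowest, with separate points for the PBS and the 4-HDHA mean of 5 libraries each and lines from the lowest to the highest library, values under 0.01 being drawn at 0.01. Ccl8 at 109 FPKM and Ccl6 at 96.4 FPKM lead, and Ccr9 at 0.0701 FPKM is last.

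The remaining chemokine ligands and receptors, with genes that carry or limit chemokine signals, were taken from a further list of 46. Of these, 41 were tested: 31 had a positive and 10 a negative log2 fold change, with a median of 0.20, and 0 passed the adjusted threshold, the smallest adjusted p being 0.303 (edgeR, Benjamini-Hochberg). At an unadjusted p under 0.05, 1 of the 41 had a lower level, beside 7.45% of all genes, and 0 had a higher level. It was Gnai3, an inhibitory G protein subunit through which chemokine receptors signal, at 210.0, 186, 244, 243 and 183 CPM with PBS and 151, 174, 157, 154 and 190.2 CPM with 4-HDHA. The PBS and 4-HDHA ranges of Gnai3 met only at PBS replicates 2 and 5 and 4-HDHA replicate 5, and the log2 fold change was -0.37 (SE 0.12). Arrb1, the arrestin that ends receptor signalling, had a log2 fold change of 0.20, and Dock2 and Rgs14, a motility factor and a G protein regulator of leukocytes, had 0.88 and 0.77. Both were highest in 4-HDHA replicate 5, Dock2 at 45.5 CPM against 9.30 to 19.8 CPM in the rest of its group and Rgs14 at 8.65 CPM against 1.94 to 4.01 CPM. Without that library Dock2 was at 0.32 and Rgs14 at 0.25. Cmklr1, the chemerin receptor, had 0.58. Cxcr5, which guides B cells into follicles, measured 0.878, 0.231, 2.68, 0.814 and 2.14 CPM with PBS and 0.368, 1.18, 0.753, 1.83 and 38.0 CPM with 4-HDHA, with 4-HDHA replicate 5 alone above 2.68 CPM and a log2 fold change of 2.64 (SE 1.25), or -0.38 without it.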

How the data were processed

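Whole-colon RNA of 10 libraries, 5 per group as their labels name them, was made into strand-marked poly(A) libraries, per the labels' protocols. Named in the submitters' processing notes are HISAT2 2.0.4, StringTie 1.3.4d, cutadapt 1.9, DESeq2 and edgeR, with mm10 as build; their order and settings are unknown here. The authors deposited raw read counts per gene for 55401 genes and, in an annotated table, FPKM values; the counts of both tables differed in 0 cells. Totals of 50915365 to 66470519 counts limit precision for genes near 1 CPM; the floor of 3 counts covers counting error only.

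Counts were tested with edgeR 4.0.16 (R 4.3.3): TMM, filterByExpr, robust quasi-likelihood F test, Benjamini-Hochberg over 19615 genes at 0.05; the script was tested on simulated data. Alternatives were DESeq2 1.42.0, other scalings and filters, limma 3.58.1 (voom with quality weights; log2(FPKM + 1) and log2(FPKM + 0.1), which understate changes of low genes), a replicate block, a smooth muscle covariate, each library left out, and PBS replicate 3 and 4-HDHA replicate 5 left out together. The 41 genes, the other lists and the alternatives were chosen with earlier results of these data known. Library values are printed for genes at an unadjusted p under 0.05, with separate groups, among the 10 highest in FPKM, or in a fixed set of ligand and receptor pairs; other genes are given by range, up to 6 of the other chemokine genes by smallest p. Promoter windows are RefSeq's (GRCm38.p6), matched by symbol for 30 of 41 genes. The motif letters were chosen with matches in these windows already seen; longer forms of the NF-kB and interferon motifs, and AP-1, STAT6 and TATA box motifs, were also looked at and are not reported.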

Additional observations from a re-analysis of the deposited data

Results flagged for a closer look

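Each of the 41 genes was checked in each group of 5 libraries, 82 sets in all, for a library whose gap to its nearest neighbour took more than 0.71 of the whole range on the log2 scale. Chance alone gives about 1 such set in 20, and 6 of the 82 had one. Ccl20 in 4-HDHA replicate 3 was at 46.6 CPM against 5.41 to 7.30 CPM in the other 4 libraries of its group, a gap of 0.861 of the range. Ackr1 in 4-HDHA replicate 4 was at 9.45 CPM against 4.18 to 4.42 CPM, a gap of 0.931. Cxcl12 in the same library was at 129 CPM against 66.2 to 75.2 CPM, a gap of 0.810. Ccr6 in 4-HDHA replicate 5 was at 11.3 CPM against 0.244 to 0.569 CPM, a gap of 0.792. In the PBS group the unusual libraries were low ones. Ccl24 had 0 counts in PBS replicate 4 against 0.357 to 0.771 CPM, a gap of 0.771, and Cxcr2 was at 0.592 CPM in PBS replicate 2 against 5.41 to 11.0 CPM, a gap of 0.753. Cxcl1, Cxcl2, Cxcl9 and Cxcl10, whose highest libraries also stood above their group, did not pass this measure.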

How the results depend on the processing

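Of the 41 genes, 0 passed an adjusted p of 0.05 in any of the 20 alternatives run (edgeR, DESeq2 and limma, smallest adjusted p 0.138). Among all genes DESeq2 called 451 (2.51% of those with an adjusted p) where edgeR as reported called 0. The shares of all genes called by the other alternatives are not given here, so the 0 cannot be set against them. The number of the 41 at an unadjusted p under 0.05 and higher with 4-HDHA was 4 as reported, 2 by DESeq2, by voom and on log2(FPKM + 1), 5 with the smooth muscle covariate (Ccl19, Cxcl9, Ccr6, Ccr9 and Cxcr4) and 1 to 4 with libraries left out; the same fits gave 7.39%, 9.67%, 11.3%, 6.39%, 4.83% and 4.37% to 10.8% of all genes. The number lower was 0 as reported, 1 by voom (Ccr10) and 0 to 2 with libraries left out, the 2 being Ccl4 and Cxcl2 without 4-HDHA replicate 5, beside 7.45%, 9.11% and 4.07% to 11.1% of all genes. With total counts and no TMM, Ccl6 joined the reported 4 as higher at an unadjusted p under 0.05, beside 7.35% of all genes. On log2(FPKM + 0.1) the higher genes were Ccl17, Ccl24 and Cx3cl1, beside 6.37% of all genes. Genes with separate groups numbered 1 as reported (2.44%), beside 2.79% of all genes. With libraries left out they numbered 1 to 2. The share of all genes in those fits is not given here, so that count cannot be read as a result. Of the other chemokine genes, 1 was at an unadjusted p under 0.05 as reported, 3 by DESeq2, 2 with every gene tested, 5 by voom, 9 with the smooth muscle covariate and 1 to 4 with libraries left out, out of 41 tested as reported; in either direction the same fits gave 14.8%, 19.0%, 11.4%, 20.4%, 7.44% and 8.81% to 18.8% of all genes. The median log2 fold change of the 41 lay between -0.10 and 0.47.

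Signs turned as follows, all for log2 fold changes that passed no adjusted test; the cause was not tested. Cxcl3 was at 0.021 by DESeq2 and RLE scaling and 0.015 without the filter. By voom: Ccl2 0.14, Cxcl14 -0.24, Ccr6 -0.021, Ccr7 -0.63, Ccr9 -0.067, Cxcr6 -0.050, Cx3cr1 -0.027 and Ackr3 0.065. On log2(FPKM + 1): Ccr7 -0.10; on log2(FPKM + 0.1): Ccl2 0.059 and Ccr7 -0.23. With the smooth muscle covariate, which left 38 of 41 values positive: Ccl2 1.05, Ccl3 0.85, Ccl4 0.76, Ccl5 0.27, Ccl7 0.14, Cxcl1 0.37, Cxcl2 0.61, Cxcl3 0.89, Cxcl5 0.083, Cxcl9 1.05, Cxcl10 0.68, Cxcl11 0.53, Ccr1 0.18 and Cxcr2 0.13. Leaving out 1 library turned at least 1 sign in 22 genes. Over these settings and the one without both PBS replicate 3 and 4-HDHA replicate 5, the values of genes that turned ranged as follows: Ccl2 -0.84 to 0.81, Ccl3 -1.79 to 0.15, Ccl4 -2.22 to 0.043, Ccl5 -1.01 to 0.13, Cxcl1 -1.24 to 0.14, Cxcl2 -2.02 to 0.079, Cxcl3 -1.50 to 0.44, Cxcl5 -0.85 to 0.077, Cxcl9 -1.23 to 0.91, Cxcl10 -1.59 to 0.89, Cxcl11 -1.20 to 0.24, Cxcl12 -0.023 to 0.36, Cxcl14 -0.10 to 0.28, Cxcl16 -0.043 to 0.35, Ccr6 -0.78 to 2.45, Ccr7 -0.97 to 0.66, Ccr9 -0.39 to 0.54, Cxcr3 -0.16 to 0.31, Cxcr6 -0.10 to 0.24, Cx3cr1 -0.11 to 0.14, Ackr1 -0.092 to 0.68 and Ackr3 -0.37 to 0.22.

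The replicate number as a block left 1 of the 41 at an unadjusted p under 0.05 (Ccl17, with Ccl24 at an unadjusted p of 0.119), beside 4.46% of all genes higher and 7.97% lower, and turned the sign of 3 values (to Ccl2 0.18, Cxcl5 0.066 and Ccr7 -0.15). Same-numbered libraries of the 2 groups deviated from their group means with correlations of 0.0135, 0.0836, 0.0772, -0.316 and -0.00293 for numbers 1 to 5. These values gave no sign that the numbers pair the samples. They were set against no reference, so they cannot exclude pairing. Values near 1 CPM, such as Ccl24, Ccl17 and Ccr9, rest on few counts.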

Other observations

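Cxcl13, the follicle chemokine that draws cells with Cxcr5, was a member of the further list of chemokine genes and was named here after its values were seen. It measured 93.9, 10.3, 210.1, 25.9 and 37.8 CPM in PBS replicates 1 to 5 and 14.1, 19.7, 7.28, 46.2 and 127 CPM in 4-HDHA replicates 1 to 5. Its highest libraries were PBS replicate 3 and 4-HDHA replicate 5, and its log2 fold change was -0.82 (SE 0.88). Cxcr5 was highest in 4-HDHA replicate 5, at 38.0 CPM, and measured 2.68 CPM in PBS replicate 3. Ccl21a, the other ligand of Ccr7, was far more abundant in counts than Ccl19 and had a mean of 124 ± 35.0 CPM under PBS (SD, n = 5) and 170.3 ± 66.8 CPM under 4-HDHA (SD, n = 5); near-identical copies of Ccl21a exist in the mouse genome, so its counts are uncertain.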
